A study of Mus musculus with 10 samples.

Results

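The T cell receptor (TCR) complex genes are 10 named genes whose RNA was measured here in mouse B cell preparations. They are the CD3 chain genes Cd3e, Cd3d and Cd3g, the receptor constant genes Trac and Trbc2, the coreceptor genes Cd4, Cd8a and Cd8b1, the adaptor gene Lat and the surface marker gene Thy1. They were taken by name from a table of read counts with 46959 gene entries, and all 10 were found in it. Their counts were small: 0 to 271 per library, at most 13.3 CPM (read counts scaled to library size), and together 0.000194% to 0.00331% of a library's gene counts.

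Libraries of total RNA were made from 5 groups of 2. Femoral B cells of C57BL6 mice aged 8 to 10 weeks were lysed without culture. The 2KO group is not spelled out in the sample labels, and the design text of the series speaks of mice lacking both the 5'Eµ and the 3'RR enhancer regions of the immunoglobulin heavy chain locus. The deltaEmu group carries the Eµ deletion by its genotype label, and RAG2_deficient mice lack Rag2, which is needed to rearrange immunoglobulin and receptor genes. No femoral group without a deletion is among the samples. Spleen cells without CD43, labelled wt and of strain 129 at the same age, were kept in culture for 48 h. Both spleen groups received 5 µg/ml of lipopolysaccharide (LPS) and 20 ng/ml of interleukin 4 (IL4), alone in LPS_IL4 and with the histone deacetylase inhibitor SAHA in LPS_IL4_SAHA. The SAHA dose is 200 nM in the sample names and 200 ng/ml in the protocol, and the growth protocol also names KOKI mice without tying them to a sample. Libraries are RNA pools of mice by the design text, so by that text the p-values measure the spread between pools. The number of mice per library is unsure. Spleen names hold 2 numbers each (4_et_7 and 6_et_8), fewer than the pool size in the design text, and femoral names hold 1 replicate number.

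On T cells the alpha and beta receptor chains recognise peptides held by MHC molecules. The chains have no signalling tail of their own and reach the surface with the CD3 chains, whose tails are phosphorylated by Lck. CD4 and CD8 bind MHC class II and class I beside the receptor, and LAT collects the signalling proteins that follow. Several of these genes are also used outside T cells: Cd4 in some dendritic cells and macrophages, Lat in NK cells, mast cells and platelets, and Thy1 in innate lymphoid and stromal cells. T cells need RAG2 to make a receptor, whereas the constant genes can also be transcribed from an unrearranged locus.

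Gene counts came to 17710154 to 25544275 per library, so 3 counts, the upper limit that a count of 0 allows, were 0.118 to 0.174 CPM. The count table numbers its columns, and the labels hold 2 numberings, which give different samples for 8 columns and the same for 2. Each column was matched through the sequencing index closing its sample's description, a choice made with marker levels known. Rag1, a recombinase gene of immature lymphocytes, was at 138 CPM or more in the 6 columns read as femoral and at most 0.0433 CPM in the 4 read as spleen. Under the numbering in the titles none of the comparisons would hold. For SAHA, the descriptions are contradicted both by the titles and by the treatment entry of each spleen sample. Those sources exchange the spleen libraries with and without SAHA. Rag1 was low in all 4 spleen columns and cannot settle this, so the LPS_IL4 and LPS_IL4_SAHA labels rest on the descriptions alone. With these labels exchanged, differences between the spleen groups would change sign. The Y-linked gene Ddx3y was at most 0.233 CPM in RAG2_deficient and 43.0 to 133 CPM in the 8 other libraries, and Xist was at 644 to 2750 CPM in femoral and at most 0.196 CPM in spleen libraries. Sex therefore cannot be told apart from genotype or tissue in the comparisons with RAG2_deficient or between tissues.

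RNA of other lineages was present in the femoral libraries. Summed over 10 B cell markers, levels were 583 to 867 CPM in 2KO, 876 to 1110 CPM in deltaEmu, 1660 to 1780 CPM in RAG2_deficient and 3950 to 5230 CPM in spleen. The 11 NK cell markers summed to 88.1 to 168 CPM in femoral and 1.75 to 2.25 CPM in spleen libraries. The 8 monocyte and macrophage markers reached 808 to 1610 CPM in femoral libraries against 8.28 to 12.8 CPM in spleen. In whole libraries, fewer cells of a type and less RNA per cell cannot be told apart.

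**Figure D1:**
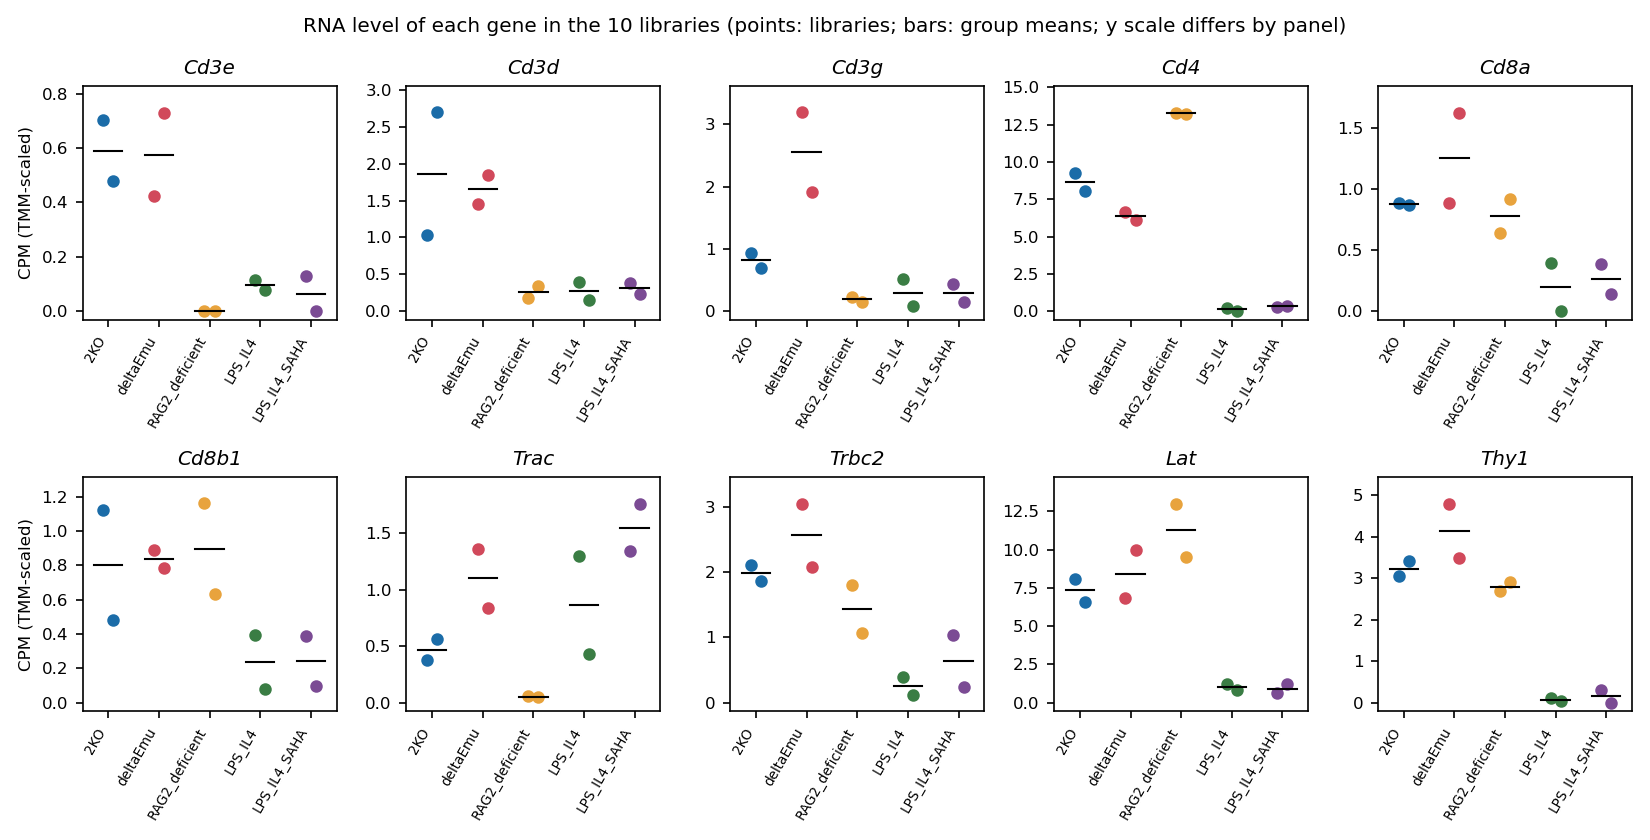
CPM (TMM-scaled, y axis, a scale per panel) of each gene in the 2 libraries of each group (x axis, points), with the group mean as a bar. Cd3e, Cd3d, Cd3g and Trac have their lowest group mean in RAG2_deficient, Cd4 is highest there at 13.2 CPM, and Trac alone has its highest mean in a spleen group.

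The 3 CD3 genes lie together on chromosome 9 of the mm10/GRCm38 genome: Cd3g at 44969572 to 44980431 on the reverse strand, Cd3d at 44981793 to 44987052 on the forward strand and Cd3e at 44998743 to 45009590 on the reverse strand. The 250 bases before the start of each are shown because the 3 genes were low together in RAG2_deficient. Promoters come from RefSeq (GRCm38.p6), which held entries for 5 of the 10 genes. Capitals mark the E-box letters CANNTG, the motif of basic helix-loop-helix factors, whose form is the same on both strands.
Cd3g (chr9:44980432-44980681, reverse strand): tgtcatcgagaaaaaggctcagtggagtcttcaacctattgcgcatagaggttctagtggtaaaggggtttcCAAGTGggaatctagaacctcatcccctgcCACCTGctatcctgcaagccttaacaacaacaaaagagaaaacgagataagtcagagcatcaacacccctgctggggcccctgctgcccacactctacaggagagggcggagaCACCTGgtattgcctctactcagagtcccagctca
Cd3d (chr9:44981536-44981785, forward strand): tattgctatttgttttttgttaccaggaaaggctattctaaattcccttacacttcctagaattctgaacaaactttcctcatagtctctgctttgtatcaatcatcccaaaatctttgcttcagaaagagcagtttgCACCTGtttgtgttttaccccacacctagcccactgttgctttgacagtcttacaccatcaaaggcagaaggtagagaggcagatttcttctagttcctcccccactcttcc
Cd3e (chr9:45009612-45009861, reverse strand): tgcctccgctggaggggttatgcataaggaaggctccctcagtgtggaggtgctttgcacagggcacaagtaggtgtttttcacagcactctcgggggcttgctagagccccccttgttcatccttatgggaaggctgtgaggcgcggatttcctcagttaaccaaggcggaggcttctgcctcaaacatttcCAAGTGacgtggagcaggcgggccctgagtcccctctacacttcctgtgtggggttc
The Cd3g window held 3 matches, and the Cd3d and Cd3e windows 1 each. CANNTG stood in 66.2% of the 32851 promoters of the same table. The letters GGAA, the core bound by ETS factors, were found on either strand in all 3 windows and in 93.4% of promoters. TGTGGT, a Runx core, and TATAAA were found in none of the 3, against 14.0% and 12.4% of promoters. A match is a description of letters and shows no binding.

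Cd3e encodes the epsilon chain, which pairs with the gamma and with the delta chain. The 2KO libraries had 15 and 11 counts, deltaEmu 9 and 13, RAG2_deficient 0 and 0, LPS_IL4 2 and 2, and LPS_IL4_SAHA 3 and 0. The 2KO and deltaEmu libraries overlapped, all 4 lay above the other 6, and RAG2_deficient was the one group without a count. Mean levels were 0.590 ± 0.158 CPM in 2KO and 0.576 ± 0.218 CPM in deltaEmu (SD, n = 2 here and for every group mean that follows).

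Cd3d encodes the delta chain. The 2KO libraries had 22 and 62 counts, deltaEmu 31 and 33, RAG2_deficient 3 and 7, LPS_IL4 7 and 4, and LPS_IL4_SAHA 9 and 5. The 4 libraries of 2KO and deltaEmu again stood above the 6 others, with the widest gap between replicates inside 2KO (1.03 and 2.70 CPM).

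Cd3g encodes the gamma chain. The 2KO libraries held 20 and 16 counts, deltaEmu 68 and 34, RAG2_deficient 4 and 3, LPS_IL4 9 and 2, and LPS_IL4_SAHA 10 and 3. Both deltaEmu libraries (3.19 and 1.91 CPM) were above both 2KO libraries (0.936 and 0.697 CPM), and these were above both RAG2_deficient libraries (0.233 and 0.146 CPM). Summed over the 3 CD3 genes, 2KO had 57 and 89 counts, deltaEmu 108 and 80, and RAG2_deficient 7 and 10.

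Trac, the alpha chain constant gene, lies on chromosome 14 at 54220521 to 54224206, and Trbc2, a beta chain constant gene, on chromosome 6 at 41546730 to 41548352, both on the forward strand. Trbc2 has a near-identical neighbour, Trbc1, at 41538218 to 41539881, and how reads with several matches were counted is not given in the sources used here. The coding parts of Trbc1 and Trbc2 are 518 bases each in GENCODE vM21 transcripts, 95.6% identical with 23 differences, and share a run of 259 identical bases. The 375 bases of coding exon 1 differ by C260A alone, Trbc1 first, counted from the first base of the coding part. Exon 3, of 107 bases, holds 15 of the differences and is shown because reads there can separate the 2 genes. Capitals mark the bases that differ.
Trbc1 exon 3 (chr6:41539229-41539335, forward strand): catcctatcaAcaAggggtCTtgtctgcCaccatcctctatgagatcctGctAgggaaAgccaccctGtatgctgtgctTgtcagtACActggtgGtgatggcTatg
Trbc2 exon 3 (chr6:41547772-41547878, forward strand): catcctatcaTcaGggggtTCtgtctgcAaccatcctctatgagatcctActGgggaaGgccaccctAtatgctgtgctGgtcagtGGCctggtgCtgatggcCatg
The division of counts between Trbc1 and Trbc2 is therefore uncertain.

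For Trac, the 2KO libraries had 8 and 13 counts, deltaEmu 29 and 15, RAG2_deficient 1 and 1, LPS_IL4 23 and 11, and LPS_IL4_SAHA 31 and 37. RAG2_deficient was below the 8 other libraries, and the highest group mean was in LPS_IL4_SAHA (1.55 ± 0.299 CPM), whose libraries overlapped those of deltaEmu (1.10 ± 0.366 CPM). Trbc2 did not share this order. Here 2KO had 45 and 43 counts, deltaEmu 65 and 37, RAG2_deficient 31 and 22, LPS_IL4 7 and 3, and LPS_IL4_SAHA 24 and 5. In RAG2_deficient it kept 1.44 ± 0.520 CPM, between the spleen groups and 2KO (1.99 ± 0.165 CPM), without overlap with either.

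Cd4 encodes the coreceptor of helper T cells and lies on the reverse strand of chromosome 6 at 124864692 to 124888221. For Cd4, 2KO had 198 and 185 counts, deltaEmu 141 and 109, RAG2_deficient 228 and 271, LPS_IL4 4 and 1, and LPS_IL4_SAHA 7 and 7. No neighbours in this order overlapped: RAG2_deficient (13.2 ± 0.0741 CPM), 2KO (8.66 ± 0.854 CPM), deltaEmu (6.36 ± 0.346 CPM), LPS_IL4_SAHA (0.318 ± 0.0218 CPM) and LPS_IL4 (0.133 ± 0.132 CPM). Cd8a and Cd8b1, for the alpha and beta chains of CD8, are neighbours on chromosome 6 (71373427 to 71379173 and 71322788 to 71337494). In femoral libraries Cd8a had 11 to 29 counts and Cd8b1 11 to 24, with group means of 0.781 to 1.26 CPM and 0.801 to 0.897 CPM. Their femoral libraries overlapped with RAG2_deficient in each comparison, and in spleen they had 0 to 9 counts.

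Lat, on chromosome 7 at 126363824 to 126369570, was counted in every library: 2KO had 173 and 151, deltaEmu 146 and 178, RAG2_deficient 224 and 196, LPS_IL4 22 and 21, and LPS_IL4_SAHA 14 and 26. The RAG2_deficient mean was the highest (11.3 ± 2.48 CPM) but overlapped deltaEmu (8.41 ± 2.23 CPM). Thy1, on chromosome 9 at 44043384 to 44048579, encodes a small surface glycoprotein. Its 2KO libraries had 65 and 78 counts, deltaEmu 102 and 62, RAG2_deficient 46 and 60, LPS_IL4 2 and 1, and LPS_IL4_SAHA 7 and 0. Its femoral groups stood in the order deltaEmu, 2KO and RAG2_deficient without overlap, at 4.13 ± 0.919, 3.22 ± 0.251 and 2.79 ± 0.168 CPM.

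Levels of different genes were compared per kilobase of the length given in the table (RPKM). Trbc2 and Lat led in 2KO (2.87 ± 0.238 and 2.65 ± 0.388 RPKM) and in deltaEmu (3.70 ± 0.990 and 3.04 ± 0.805 RPKM). In RAG2_deficient, Lat (4.07 ± 0.898 RPKM) and Cd4 (3.28 ± 0.0184 RPKM) led, and the 4 lowest were Cd3d, Cd3g, Trac and Cd3e. In both spleen groups Trac led, at 0.927 ± 0.658 RPKM in LPS_IL4 and 1.66 ± 0.320 RPKM in LPS_IL4_SAHA, followed by Lat at 0.374 ± 0.107 RPKM and by Trbc2 at 0.923 ± 0.818 RPKM. The CD3 genes were not at one level: in deltaEmu Cd3g stood at 2.38 ± 0.844, Cd3d at 1.25 ± 0.214 and Cd3e at 0.401 ± 0.152 RPKM.

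The series asks about heavy chain enhancers, to which 2KO against deltaEmu relates. None of the 10 genes was called at an adjusted p of 0.05 (edgeR quasi-likelihood test, Benjamini-Hochberg adjustment over all 16538 genes tested), against 3.7% of all genes tested (1.79% higher and 1.91% lower in 2KO). At an unadjusted p under 0.05 there were 2, Cd3g and Trac, beside 2597 of all genes (15.7%), and DESeq2 called 0. Mean Cd3g was 0.816 ± 0.169 CPM for 2KO and 2.55 ± 0.904 CPM for deltaEmu, a log2 difference of -1.65 ± 0.43 (SE, as for every log2 value that follows) with an edgeR adjusted p of 0.0969. Trac was at 0.470 ± 0.136 and 1.10 ± 0.366 CPM (log2 -1.23 ± 0.485, adjusted p = 0.272). The log2 differences of the 8 others ran from -0.51 ± 0.45 for Cd8a to 0.44 ± 0.20 for Cd4, with adjusted p of 0.359 to 0.984. The median over the 10 was -0.29, against -0.01 over all genes tested. Groups did not overlap for 5 of the 10, as for 57.6% of genes tested. Cd3g passed the threshold under 2 of 5 other settings that kept all libraries of both groups. Its adjusted p was 0.00869 without the filter on low counts and 0.0395 with the 2 groups fitted alone, and up to 0.108 in the rest. With 1 library left out, its log2 value ran from -1.98 to -1.22.

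**Figure D2:**
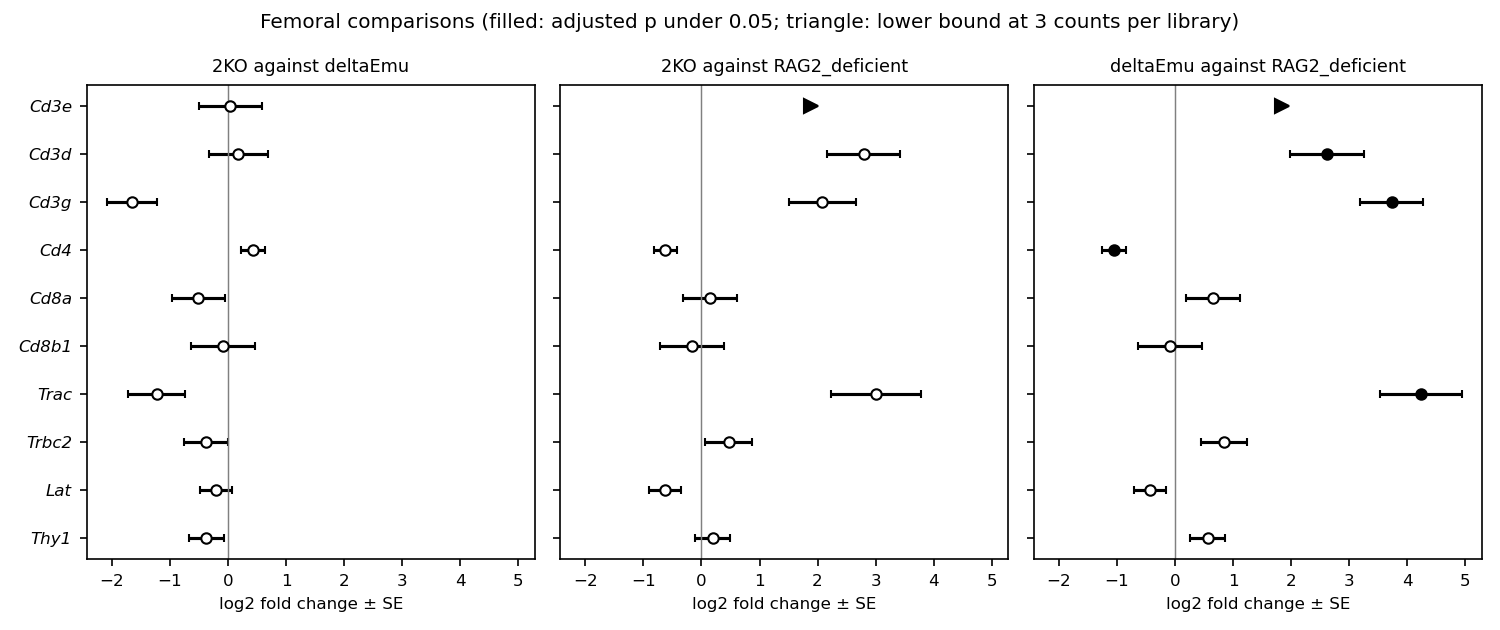
Log2 fold change ± SE (x axis) of each gene (y axis) in the 3 femoral comparisons; filled symbols have an adjusted p under 0.05, and triangles are lower bounds set at 3 counts per library. Only Cd3e is filled in the middle panel, and Cd3e, Cd3d, Cd3g and Trac on the right of 0 and Cd4 on the left are filled in the last.

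Against RAG2_deficient, 2KO had more Cd3e. It was at least 3.69-fold higher in 2KO, with 26 counts against 0 in RAG2_deficient (edgeR adjusted p = 0.0397). It was the 1 gene called of 10, against 4.31% of the genes tested (1.26% higher, 3.05% lower), and DESeq2 called 2, with Cd3d added (adjusted p = 0.00712). Cd3d was at 1.86 ± 1.18 against 0.257 ± 0.117 CPM (log2 2.79 ± 0.63, adjusted p = 0.0528), and Cd3g at 0.816 ± 0.169 against 0.189 ± 0.0615 CPM (2.08 ± 0.58, adjusted p = 0.0928). Trac rested on 21 counts against 2, 8.95 times as many after scaling by library size (95% counting interval 2.19 to 78.7; adjusted p = 0.0748).

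The other genes did not pass that test, in either direction. Cd4 (log2 -0.62 ± 0.20, adjusted p = 0.134) and Lat (-0.63 ± 0.28, adjusted p = 0.264) were lower in 2KO without overlap. Trbc2 stood at 0.47 ± 0.40, Thy1 at 0.19 ± 0.30, Cd8a at 0.15 ± 0.47 and Cd8b1 at -0.17 ± 0.55, with adjusted p of 0.599 to 0.915. The median of the 10 was 0.33, against -0.00067 over all genes tested, and 8 of the 10 did not overlap between groups, as for 46.7% of genes tested. The Cd3e call was lost with the 2 groups fitted alone (adjusted p = 0.0885), and without 2KO replicate 1 (0.132) or 3 (0.145), deltaEmu replicate 5 or 7 (0.102 for both) or RAG2_deficient replicate 2 (0.0804).

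Between deltaEmu and RAG2_deficient, 5 of the 10 genes were called, against 9.81% of genes tested. Cd3e, Cd3d, Cd3g and Trac were higher in deltaEmu, as 4.42% of genes tested were, and Cd4 was lower, as 5.39% were. Cd3g had the smallest adjusted p: it was 13.3-fold higher, at 2.55 ± 0.904 against 0.189 ± 0.0615 CPM (log2 3.73 ± 0.54, edgeR adjusted p = 0.00624). Trac had 44 counts against 2, 21.2 times as many after scaling by library size (95% counting interval 5.54 to 181; adjusted p = 0.0109). Cd3e was at least 3.6-fold higher, with 22 counts against 0 (adjusted p = 0.0235), and Cd3d was 6.14-fold higher (log2 2.62 ± 0.64, adjusted p = 0.0427). Counting intervals here and elsewhere cover counting error only.

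Cd4 went the other way and was 2.08-fold lower in deltaEmu, at 6.36 ± 0.346 against 13.2 ± 0.0741 CPM (log2 -1.06 ± 0.20, edgeR adjusted p = 0.0185). The 5 remaining genes did not pass the test. Trbc2 differed by 0.84 ± 0.40 (adjusted p = 0.229), Thy1 by 0.56 ± 0.30 (0.287), Cd8a by 0.66 ± 0.46 (0.424), Lat by -0.43 ± 0.27 (0.377) and Cd8b1 by -0.08 ± 0.55 (0.943). The median was 0.75, against -0.01 over all genes tested, and 7 of the 10 did not overlap, as for 52.8% of genes tested. DESeq2 called 5 as well. Calls fell from 5 to 0 without deltaEmu replicate 5, to 1 (Cd3g) without deltaEmu replicate 7, to 4 without RAG2_deficient replicate 1 and to 3 without RAG2_deficient replicate 2, while every log2 value of these 5 genes kept its sign. This comparison and that of 2KO share the RAG2_deficient libraries, so they are not independent. Genotype at Rag2 and at the enhancers differ together in both and cannot be told apart.

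Marker genes of B cells and of other cell types also differed between the same groups, in both directions. Of all genes tested, 9.81% were called between deltaEmu and RAG2_deficient, and 4.31% between 2KO and RAG2_deficient. Of 10 B cell markers, Ms4a1 (27.1-fold, edgeR adjusted p = 0.000939), Cd74 (4.39-fold, 0.00157) and Blk (2.59-fold, 0.0403) were higher in deltaEmu than in RAG2_deficient, and Igll1, Ebf1 and Pax5, which are used early in B cell development, were lower (adjusted p = 0.00954 to 0.0403). Of 6 tested markers of group 2 innate lymphoid cells, Il9r (33.3-fold, adjusted p = 0.00173) and Areg (11.3-fold, 0.0225) were higher. The median log2 of the 6 was negative, at -0.42, and none was called lower. All 8 markers of that list summed to 37.4 to 46.1 CPM in deltaEmu and 45.9 to 49.6 CPM in RAG2_deficient. All 8 stromal markers were lower in deltaEmu than in RAG2_deficient, with sums of 2070 to 2220 CPM against 6620 to 7340 CPM (1120 to 1570 CPM in 2KO). NK markers summed to 113 to 138 CPM in deltaEmu and 158 to 168 CPM in RAG2_deficient, with 2 of 11 called lower. Plasmacytoid dendritic cell markers summed to 419 to 474 CPM in 2KO, 481 to 575 CPM in deltaEmu and 575 to 576 CPM in RAG2_deficient, and 1 of 8, Ccr9, was lower in deltaEmu than in RAG2_deficient. Monocyte and macrophage markers were split, with 3 of 8 higher and 3 lower in deltaEmu. Clec9a, 1 of 7 conventional dendritic cell markers, was lower in deltaEmu. None was called in the lists of mast cells and basophils, megakaryocytes and platelets, or progenitors. Among the lists of B cells and other cell types, Il5 of the group 2 innate lymphoid cells was the 1 marker at 0 in RAG2_deficient. Il5 was at 0 in deltaEmu too. Among the lists of T cell and receptor genes, Foxp3 and the gamma chain constant gene Tcrg-C3 were also at 0 in RAG2_deficient. Tcrg-C3 was at 0 in deltaEmu as well. In 2KO against RAG2_deficient, 6 of 8 stromal, 2 of 11 NK and 4 of 10 B cell markers were lower, and Cd74 was higher. Cd14 of the monocyte list and Fcer1a of the mast cell list were also higher in 2KO, and Ppbp of the megakaryocyte list was lower. The part of these cell types in the levels of Cd4, Lat or the CD3 genes was not tested.

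Receptor gene segments were counted beside the constant genes and are given without a test. Summed over 259 V, D and J segments of the 4 receptor loci, 2KO held 187 and 195 counts, deltaEmu 220 and 211, RAG2_deficient 125 and 174, LPS_IL4 20 and 5, and LPS_IL4_SAHA 22 and 8. The V segments of the alpha locus (Trav) had 34 and 29 counts in RAG2_deficient, where Trac had 1 and 1, and 44, 43, 59 and 65 in 2KO and deltaEmu. The J segments of that locus (Traj) summed to 15 and 20 counts for 2KO, 22 and 10 for deltaEmu, and 0 and 8 for RAG2_deficient. At the beta locus Trbj segments had 20 and 58 counts in RAG2_deficient, against 40 to 54 in 2KO and deltaEmu. On the CPM scale, Trav in RAG2_deficient (1.98 and 1.41 CPM) overlapped 2KO (2.06 and 1.87 CPM) but not deltaEmu (2.76 and 3.65 CPM). Trbj (1.16 and 2.82 CPM) overlapped both other femoral groups. Trac overlapped neither and was lower, and the same held for Traj (0 and 0.388 against 0.561 to 1.03 CPM). It also held for the V segments of the beta locus (Trbv, 1.34 and 1.41 against 1.64 to 1.96 CPM). The V segments of the gamma locus (Trgv) did likewise (0.174 and 0.0971 against 0.348 to 1.18 CPM). In RAG2_deficient, beta D segments (Trbd) were above 2KO (0.814 and 1.02 against 0.561 and 0.261 CPM) and overlapped deltaEmu. Gamma J segments (Trgj) were above deltaEmu (0.116 and 0.243 against 0.0937 and 0.112 CPM) and overlapped 2KO. Of the delta locus, Trdv and Trdj overlapped both groups, and Trdd was below 2KO and overlapped deltaEmu. Of genes tested, 46.7% did not overlap between 2KO and RAG2_deficient, and 52.8% between deltaEmu and RAG2_deficient.

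**Figure D3:**
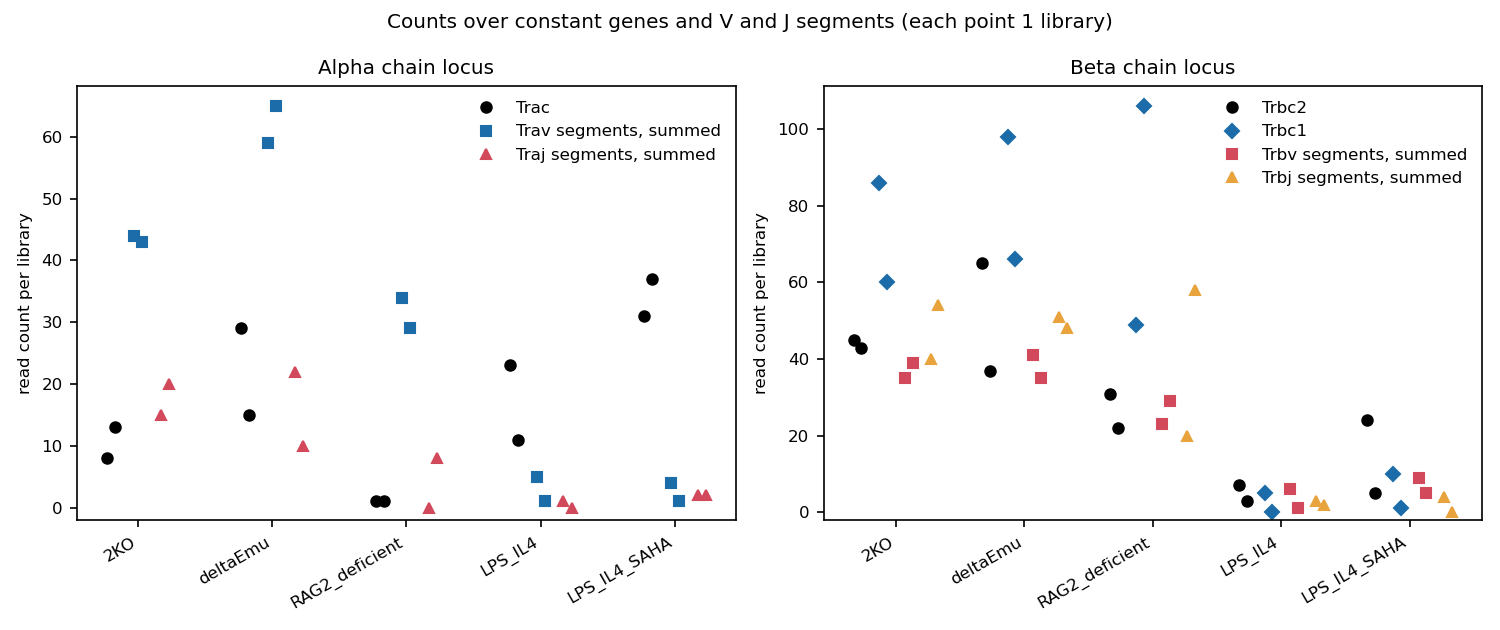
Read counts per library (y axis) by group (x axis) for the alpha locus (left: Trac and the summed Trav and Traj segments) and the beta locus (right: Trbc2, Trbc1 and the summed Trbv and Trbj segments). In RAG2_deficient, Trac is at 1 count in both libraries while Trav stays at 29 and 34; in spleen, Trac exceeds the Trav sum in all 4 libraries.

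Other constant genes of the receptor loci were also tested. Trbc1, which shares most of its sequence with Trbc2, had 86 and 60 counts for 2KO, 98 and 66 for deltaEmu, and 49 and 106 for RAG2_deficient, and differed by 0.05 ± 0.37 between deltaEmu and RAG2_deficient (adjusted p = 0.956). Trdc, of the delta chain, had 33 and 30, 64 and 34, and 12 and 23 counts in the same groups (log2 1.42 ± 0.42, adjusted p = 0.0766). Of all genes tested, 9.81% were called between deltaEmu and RAG2_deficient. Of 4 such constant genes tested, Tcrg-C4, of a gamma chain, was the 1 called, as higher in deltaEmu. It had 25 and 18 counts against 3 and 1 (log2 3.28 ± 0.64, edgeR adjusted p = 0.0198). That call was lost without deltaEmu replicate 5 (0.171), deltaEmu replicate 7 (0.106) or RAG2_deficient replicate 2 (0.0681).

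Genes that act downstream of the receptor are set here beside the share of all genes called. Of 37 TCR signalling genes tested, edgeR called none between 2KO and deltaEmu (5 had an unadjusted p under 0.05, against 15.7% of all genes tested, and DESeq2 called 1). In 2KO against RAG2_deficient 1 of 37 was called, lower in 2KO, against 4.31% of all genes. In deltaEmu against RAG2_deficient 3 of 37 were called, 1 higher and 2 lower in deltaEmu, against 9.81%. Trat1, an adaptor that associates with the receptor complex, was the higher one, with 16 and 25 counts in deltaEmu against 2 and 1 in RAG2_deficient (edgeR adjusted p = 0.0185, or 0.0735 to 0.140 without either deltaEmu library or RAG2_deficient replicate 2). Sit1, an inhibitory adaptor, was lower at 1.83 and 4.94 against 17.5 and 12.4 CPM (log2 -2.16 ± 0.48, adjusted p = 0.0306). Cd247, whose zeta chain completes the receptor complex, had 55 and 39 counts for 2KO, 56 and 42 for deltaEmu, and 64 and 69 for RAG2_deficient, and Zap70, the kinase that binds it, had 41 to 57 counts in all 6 femoral libraries.

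Dgka, a diacylglycerol kinase, was the gene of this list called against RAG2_deficient in both comparisons. It was at 34.9 ± 2.47 CPM in 2KO, 38.4 ± 2.26 CPM in deltaEmu, and 54.6 and 88.8 CPM in RAG2_deficient (log2 -1.05 ± 0.23, edgeR adjusted p = 0.0490, and -0.91 ± 0.23, adjusted p = 0.0487). These calls were close to the threshold. The first was lost without either 2KO or either deltaEmu library (0.125 to 0.336) and with the 2 groups fitted alone (0.126). The second was lost without either 2KO library, either deltaEmu library or RAG2_deficient replicate 2 (0.0629 to 0.324). It was also lost with RLE factors (0.0512), without immunoglobulin, mitochondrial and ribosomal RNA genes (0.0518), and with the 2 groups alone (0.0877).

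Of 17 costimulation and surface genes, 3 were lower in 2KO than in deltaEmu, against 1.91% of all genes tested. Cd2, an adhesion receptor, was at 2.84 ± 1.07 against 10.1 ± 1.29 CPM (log2 -1.83 ± 0.32, edgeR adjusted p = 0.0213). Ccr7, the chemokine receptor of lymph node homing, was at 0.985 ± 0.530 against 5.03 ± 0.120 CPM (-2.36 ± 0.43, adjusted p = 0.0265), and Pdcd1, for the inhibitory receptor PD-1, at 0.270 ± 0.0502 against 1.33 ± 0.304 CPM (-2.29 ± 0.47, adjusted p = 0.0422). B cells express these 3 genes too, and the B cell marker Ms4a1 (CD20) was 69.7-fold lower in 2KO (log2 -6.12 ± 0.48, adjusted p = 0.000662), the 1 called of 10 B cell markers. Il9r, the 1 called of 6 tested from the list for group 2 innate lymphoid cells, was 18.6-fold lower (log2 -4.22 ± 0.48, adjusted p = 0.00375). The median of that list was 0.02. Il1rl1 (0.56 ± 0.22), Il17rb (0.49 ± 0.29) and Rora (0.23 ± 0.24) were higher in 2KO without a call. Areg (-1.49 ± 0.55) and Klrg1 (-0.20 ± 0.66) were lower without a call. The part of other cell types in the Cd2, Ccr7 and Pdcd1 differences was not tested. Cd2 was also higher in deltaEmu than in RAG2_deficient (1.47 ± 0.31, adjusted p = 0.0262), the 1 gene of 17 called there, against 9.81% of all genes. The Cd2 and Ccr7 differences lost their calls without 2KO replicate 3 or either deltaEmu library (adjusted p = 0.138 to 0.226), and Pdcd1 without any of these 4 libraries of 2KO and deltaEmu (0.209 to 0.360) or without immunoglobulin, mitochondrial and ribosomal RNA genes (0.0518). Among 10 T lineage transcription factors tested, edgeR called none in 2KO against RAG2_deficient, against 4.31% of all genes. Their median log2 was -0.19, with Bcl11b at 2.25 ± 0.65 (adjusted p = 0.1) and Lef1 at -1.15 ± 0.315 (0.0888). In deltaEmu against RAG2_deficient Lef1 alone was called, against 9.81% of all genes, and the median of the 10 was -0.22. Lef1 was lower in deltaEmu at 37.5 and 58.9 against 99.3 and 185 CPM in RAG2_deficient (log2 -1.57 ± 0.32, adjusted p = 0.0225). Without either deltaEmu library its adjusted p was 0.0796 to 0.215, and for Sit1 and Cd2 in this comparison 0.0509 to 0.202.

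Cultured spleen B cells held few counts of these genes apart from Trac and Lat, and these 2 alone passed the filter on low counts in that fit. Trac was at 0.867 ± 0.615 CPM in LPS_IL4 and 1.55 ± 0.299 CPM in LPS_IL4_SAHA (log2 0.80 ± 0.58, edgeR adjusted p = 0.939). Lat was at 1.03 ± 0.297 and 0.923 ± 0.448 CPM (-0.25 ± 0.51, adjusted p = 0.942). Neither was called, as was none of the 13913 genes tested (0%), of which 187 (1.34%) had an unadjusted p under 0.05. Neither of the 2 was among those, and DESeq2 called 0 genes. Both Trac counts with SAHA (31 and 37) were above both without (23 and 11), a non-overlap shared by 24.6% of genes tested.

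Summed over the 8 untested genes, counts were higher in one pool than in the other under both treatments. Pool 4_et_7 held 45 counts in LPS_IL4 and 78 in LPS_IL4_SAHA, and pool 6_et_8 held 15 and 25. The CD3 genes alone had 18 and 22 counts in pool 4_et_7 against 8 and 8 in pool 6_et_8, and the receptor gene segments 20 and 22 against 5 and 8. Trbc2 had 7 and 24 counts in pool 4_et_7 and 3 and 5 in pool 6_et_8. Gene by gene there were exceptions: Cd3e had 2 counts in both pools without SAHA and Cd4 had 7 in both with it. Under SAHA, Trac (37 against 31) and Lat (26 against 14) had more counts in pool 6_et_8 than in pool 4_et_7. No test was run between pools, which are replicates of one group.

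**Figure D4:**
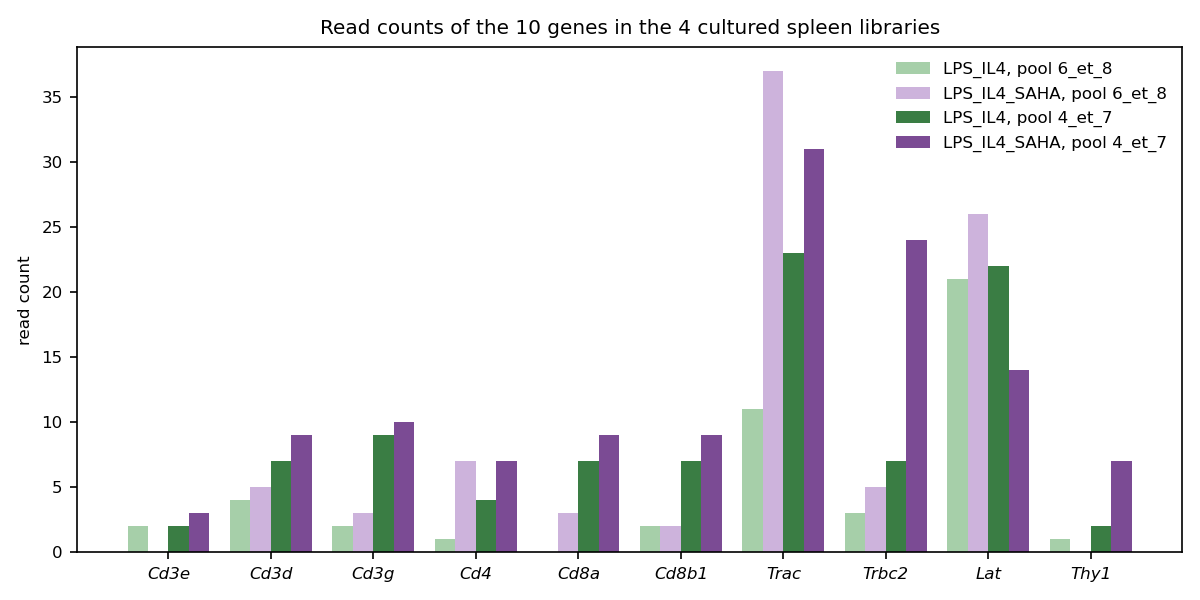
Read counts (y axis) of the 10 genes (x axis) in the 4 cultured spleen libraries, by treatment (green and purple) and pool (light and dark bars). Dark bars exceed light ones for most genes, but with SAHA the bars of Trac (37 counts) and Lat (26) are higher in pool 6_et_8.

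Set against the 6 femoral libraries, the 4 spleen libraries had lower levels of 8 of the 10 genes and a higher level of 1. Of all 17483 genes tested, 71.4% were called, 40.9% lower and 30.6% higher, and tissue, culture, strain, sex and genotype (every femoral library carries a deletion, and the spleen libraries are labelled wt) differ together and cannot be told apart. Cd4 fell by 5.56 ± 0.29 on the log2 scale (47.1-fold, edgeR adjusted p = 1.66e-07), Thy1 fell by 4.97 ± 0.53 (31.4-fold, adjusted p = 2.04e-05) and Lat fell by 3.26 ± 0.27 (9.60-fold, adjusted p = 3.21e-06). Trbc2 (-2.35 ± 0.46), Cd8a (-2.18 ± 0.59), Cd8b1 (-1.90 ± 0.53) and Cd3d (-1.75 ± 0.45) were lower with adjusted p of 0.00121 to 0.00881. The median of the 10 was -2.04, against -0.21 over all genes tested, and 6 of the 10 did not overlap between tissues, as for 55.7% of genes tested.

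Cd3g, Cd3e and Trac depended on which libraries entered. Cd3g was lower in spleen (log2 -1.44 ± 0.53, edgeR adjusted p = 0.0319), but 6 of 10 fits with 1 library left out lost the call (0.0526 to 0.101), namely those without 2KO replicate 1 or 3, deltaEmu replicate 5, RAG2_deficient replicate 1, or replicate 6_et_8 of either spleen group. Cd3e was not called (-0.63 ± 2.10, adjusted p = 0.800), with 7 counts in 4 spleen libraries against 48 in 4 of the 6 femoral ones. Without the RAG2_deficient group it was lower in spleen (log2 -2.79, adjusted p = 0.00195). Trac was higher in spleen (log2 1.78 ± 0.41, adjusted p = 0.00304), and without the RAG2_deficient group by 0.64 (adjusted p = 0.179).

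Trac counts in spleen came without a like number of alpha locus segments. The 4 spleen libraries held 102 counts of Trac, 11 of Trav and 5 of Traj segments. The 4 libraries of 2KO and deltaEmu held 65, 211 and 67. All 5 other constant genes tested were lower in spleen, such as Trbc1 (log2 -4.48 ± 0.61, adjusted p = 0.000105), and Trdc had 1 count in the 4 libraries against 196 in femoral ones. Of 37 TCR signalling genes, 23 were lower and 7 higher in spleen. The smallest adjusted p were those of Lcp2, an adaptor shared with myeloid cells (edgeR adjusted p = 7.71e-09; 1.78 ± 0.127 CPM in LPS_IL4 against 86.7 ± 2.76 CPM in 2KO), Ubash3a, a phosphatase family gene that restrains receptor signals (9.77e-09; 0.288 ± 0.0735 against 23.9 ± 1.34 CPM), and Fyb (1.71e-08; 0.601 ± 0.351 against 86.4 ± 12.2 CPM). Of 17 costimulation genes, 12 were lower and 5 higher. Cd7 had the smallest adjusted p (edgeR adjusted p = 1.9e-08) and was lower, at 0.124 ± 0.0647 CPM in LPS_IL4 against 25.3 ± 4.24 CPM in 2KO. Cd27 (log2 -5.83 ± 0.25) and Il7r (-6.86 ± 0.37) were lower too. Ccr7 was higher, at 81.2 ± 28.0 CPM in LPS_IL4 and 0.985 to 5.03 CPM as femoral group means. Of 10 transcription factors, 8 were lower, and Foxp3 had no count in either spleen group or in RAG2_deficient. All 11 NK and all 8 monocyte and macrophage markers were lower in spleen. So were all 8 stromal markers, which summed to 1120 to 7340 CPM in femoral and at most 0.17 CPM in spleen libraries. All 7 tested markers of mast cells and basophils (277 to 521 against at most 0.303 CPM) and all 8 of megakaryocytes and platelets (43.4 to 74.6 against at most 2.32 CPM) were lower too. These lists were lower throughout, as were 8 of the 10 genes and 40.9% of all genes tested. Other lists were split, beside 40.9% of all genes lower and 30.6% higher. Plasmacytoid dendritic cell markers had 6 of 8 lower and 2 higher, and conventional dendritic cell markers 4 of 7 lower and 1 higher. Group 2 innate lymphoid cell markers had 4 of 6 tested lower and 1 higher, and progenitor markers 7 of 8 lower and 1 higher. The part of any of these lists in the result was not tested.

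For the 4 genes with a mean of at least 1 CPM over the 10 libraries, the most similar profiles were sought among 14054 genes. Pearson correlation of log2(CPM + 0.5) was used, as a description over 10 libraries that differ in tissue and depth. Cd4 was nearest to Slc7a2 (r = 0.998), Ccr9 and Sh3pxd2b (both 0.997). Lat was nearest to Iffo1 (0.994), Gmpr (0.993) and Cdc42bpg (0.992), and Thy1 to Cask (0.996), Csgalnact2 and Chn2 (both 0.995). Trbc2 had lower values, with March1 and Nxt2 (both 0.968) and Sec62 (0.966). The 10 libraries include both tissues, between which 71.4% of genes tested were called.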

How the data were processed

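RNA was extracted with a miRNeasy kit and made into stranded total RNA libraries, per the labels' protocols. What the authors deposited is a single table of whole read counts per gene for all 10 libraries. Per the submitters' processing notes, STAR 2.4.0a aligned the reads to mm10/GRCm38 and featureCounts (Subread 1.4.6-p1) counted them. Neither the annotation release nor the settings for strand and multiple matches were given in the sources used here. The table's 100 control entries were left out of all totals and fits.

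Tests used edgeR 4.0.16 in R 4.3.3 (filterByExpr with a minimum count of 10, TMM factors, quasi-likelihood F tests, Benjamini-Hochberg adjustment over all genes tested), tested beforehand on simulated data. One fit held the 6 femoral libraries, one the 4 spleen libraries, and one all 10 (spleen mean minus femoral mean). SE is the log2 value divided by the square root of F. Levels are CPM with TMM factors over 10 libraries. RPKM divides CPM by the length in the table. Folds against a group without counts are bounds at 3 counts per library, and ratios on 1 to 3 counts carry exact 95% intervals. Alternatives were RLE factors, DESeq2 1.42.0, no filter, removal of immunoglobulin, mitochondrial and ribosomal RNA genes, fits of the 2 groups alone, and leaving out each library. Spleen pool names pair the samples by label, but deviations of the pools correlated at -0.442 over 13913 genes.

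The 10 genes and all lists were chosen with earlier results of these data known. The text names all 10, up to 4 called genes per list and comparison with the smallest adjusted p, and the 3 most similar genes of each of the 10 with at least 1 CPM. Genes named for context were chosen after their values were seen. They are Cd247, Zap70, Foxp3, Tcrg-C3, Bcl11b, Rag1, Il5, Ddx3y, Xist and marker genes of other cell types, and Trbc1 and Trdc in femoral cells. Not every gene the rule adds is given.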

Additional observations from a re-analysis of the deposited data

How the results depend on the processing

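With small counts, the calls depend on few libraries. In 2KO against deltaEmu, 0 of the 10 genes became 1 without the count filter and with the 2 groups alone, and 0 to 1 with a library left out. All genes called (612) became 949 with DESeq2, 1537 without the filter, 399 without immunoglobulin, mitochondrial and ribosomal RNA genes, 1580 with the 2 groups alone, and 119 to 1587 with a library left out. In 2KO against RAG2_deficient, 1 of 10 became 2 with DESeq2, 4 without the filter, 0 with the 2 groups alone and 0 to 1 with a library left out, and 713 genes became 1242, 1971, 213 and 153 to 3222. In deltaEmu against RAG2_deficient, 5 of 10 became 0 to 5 with a library left out, and 1622 genes became 3308 without the filter and 259 to 5401 with a library left out. For SAHA, 0 genes became 145 without the filter and 0 to 2670 with a library left out, and 0 of the 10 genes were called throughout. Between spleen and femoral libraries 8 or 9 of 10 were called throughout.

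Fits with 1 library in an arm assume that it varies like the others. Signs changed only for differences that were not called, always with a library left out. In 2KO against deltaEmu, leave-one-out log2 values ran from -0.31 to 0.46 for Cd3e (-0.25 without 2KO replicate 1), -0.68 to 0.71 for Cd3d, -0.80 to 0.41 for Cd8b1 (0.02 without deltaEmu replicate 5) and -0.45 to 0.0831 for Lat. Against RAG2_deficient, 2KO ran from -0.88 to 0.33 for Cd8b1 (0.33 both without 2KO replicate 3 and without RAG2_deficient replicate 1) and from -0.0665 to 0.44 for Cd8a, and deltaEmu from -0.48 to 0.42 for Cd8b1 (0.01 without deltaEmu replicate 7). Lat with SAHA ran from -0.79 to 0.20 (0.03 without LPS_IL4 replicate 4_et_7). The cause of these changes was not tested. With the replicate block by pool name, 0 genes and 0 of the 10 were called for SAHA. A crossed pairing, chosen after seeing the data, also called 0. For femoral cells, no paired analysis was possible because groups share fewer than 2 replicate numbers. The fit without the RAG2_deficient group was also chosen after seeing the data. A count of 0 allows a level of up to 0.118 to 0.174 CPM, depending on the library, for counting error only.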
